A study of Mus musculus with 30 samples.

Results

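Matrix metalloproteinases, ADAM proteases and their inhibitors were followed in mouse lung organoid co-cultures exposed to inflammatory or fibrotic factors. The members are all genes whose symbol begins with Mmp, Timp, Adam, Adamts or Adamtsl followed by a digit, 85 of the 55487 genes counted. They comprise 23 matrix metalloproteinases, 4 tissue inhibitors of metalloproteinases, 34 ADAMs, 19 ADAMTSs and 5 ADAMTS-like genes. Reads were counted on 72 of them, and the other 13 (Adam3, Adam6a, Adam6b, Adam20, Adam24, Adam25, Adam26a, Adam26b, Adam29, Adam34, Adam34l, Adamts19 and Mmp20) had none in the 30 libraries. Genes were tested where they averaged 1 read or more per library of the fraction, which 50 members did in epithelial and 56 in fibroblast libraries. The 14 members with reads that were tested in neither fraction had 1 to 16 reads in all, among them Mmp7, Mmp21, Mmp25 and Adamts8.

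Matrix metalloproteinases (MMPs) are zinc-dependent enzymes that are made as inactive precursors and cut collagens, elastin, laminins and other parts of the extracellular matrix, as well as growth factors and their binding proteins. ADAMs are membrane proteases that shed receptors, cytokines and EGF family ligands from the cell surface, ADAMTSs are secreted relatives that cut proteoglycans and process procollagens, and ADAMTS-like proteins share their ancillary domains without a protease domain. Tissue inhibitors of metalloproteinases (TIMPs) bind the active site of these enzymes, so that proteolysis depends on the balance between them, and in the lung this balance is known for its part in emphysema, fibrosis and epithelial repair.

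Of the MMP genes, 10 lie side by side in 427 kb of chromosome 9 (chr9:7272514-7699585, GRCm38.p6), including Mmp3, Mmp10, Mmp12 and Mmp13, whose levels are described below. The 120 bases before the annotated start of 3 of them are shown, with Timp1 on chromosome X as a gene outside the cluster. Capitals mark matches to TGANTCA, the letters bound by AP-1, a factor that cytokine signals activate (the pattern reads the same on both strands). All sequences are 5′ to 3′ on the plus strand, from RefSeq for GRCm38.p6, at chr9:7272394-7272513 (Mmp13), chr9:7445702-7445821 (Mmp3), chr9:7502222-7502341 (Mmp10) and chrX:20870046-20870165 (Timp1).
Mmp13: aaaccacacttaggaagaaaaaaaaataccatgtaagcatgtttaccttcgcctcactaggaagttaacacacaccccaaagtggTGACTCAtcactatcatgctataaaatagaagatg
Mmp3: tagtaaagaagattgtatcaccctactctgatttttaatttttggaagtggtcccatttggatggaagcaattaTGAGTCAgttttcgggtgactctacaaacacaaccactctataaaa
Mmp10: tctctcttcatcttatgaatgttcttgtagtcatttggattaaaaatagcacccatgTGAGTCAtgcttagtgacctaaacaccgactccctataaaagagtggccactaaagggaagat
Timp1: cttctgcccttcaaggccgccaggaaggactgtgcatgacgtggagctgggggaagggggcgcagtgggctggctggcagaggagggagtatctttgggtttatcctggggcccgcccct
The match began 35 bases before the start of Mmp13, 46 before that of Mmp3 and 63 before that of Mmp10, and the Timp1 stretch held none. In the 250 bases before the start, the letters were present in 8 of the 12 promoters listed for the cluster, which belong to 8 of its 10 genes, in 12 of the 59 promoters of members and in 6.75% of all 32851 promoters. Mmp12 held them before 1 of its 2 starts, and Mmp8 and Mmp27 did not. No promoter was listed for Adamts7 (chr9:90162904-90200102), Adam12 and Mmp2. A match is a description of letters and was not tested for binding.

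The cultures were made of 300000 Epcam+ lung cells of wild-type mice (C57BL/6J, males and females of at least 8 weeks) mixed 1:1 with CCL206 fibroblasts, a mouse lung fibroblast line that had been inactivated with mitomycin C, so the fibroblasts of every culture come from 1 line. After 72 hours with vehicle, EC, IPFc or TGF-β the cultures were digested and separated with Epcam microbeads into Epcam+ cells, called epithelial here, and Epcam- cells, called fibroblasts. EC is a cocktail of factors raised in exacerbations of chronic obstructive pulmonary disease (IL-1β and IL-6 at 300 pg/ml each, KC, the mouse counterpart of the IL-8 named in the labels, at 20 ng/ml, and TNF-α at 200 pg/ml), IPFc holds 9 factors raised in lungs with idiopathic pulmonary fibrosis (TGF-β and TNFα, the interleukins IL-33, IL-13, IL-8, IL-4 and IL-1β, the chemokine CCL2, and TSLP), and TGF-β was given alone at 2 ng/ml. Each of the 8 groups had 4 libraries, 1 per mouse, except epithelial TGF-β (mice 2, 3 and 4) and fibroblast vehicle (mice 1, 3 and 4), and values are given in the order of the mice throughout.

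The libraries held 5113828 to 20317181 counted reads, with the fewest in the fibroblast EC library of mouse 1. Epcam was at 217 to 388 CPM (read counts scaled to library size) in epithelial and 3.04 to 112 in fibroblast libraries, while Ptprc of leukocytes and Pecam1 of endothelium were at or below 2.66 in every library. The summed level of a longer list of immune genes moved with treatment, at 304 to 340 CPM with vehicle, 453 to 584 with EC, 252 to 307 with IPFc and 134 to 203 with TGF-β in epithelial libraries, and at 128 to 170, 248 to 350, 102 to 139 and 29.7 to 46.2 in fibroblast libraries, and its part in the results was not tested. That of an endothelial list was 9.92 to 36.7 CPM over all libraries. Each fraction also held reads of genes typical of the other, at levels that moved with treatment. The shares given here count such reads as RNA of the other fraction. Whether a fraction's own cells made them was not tested. In epithelial libraries Epcam was at 217 to 234 CPM with vehicle, 238 to 336 with EC, 226 to 261 with IPFc and 353 to 388 with TGF-β. The summed level of the epithelial gene list there was 33250 to 41960 CPM with vehicle and 27730 to 35380 with EC. It was 29000 to 32550 CPM with IPFc and 12880 to 16240 with TGF-β, so with TGF-β the list fell while Epcam rose. The share of fibroblast RNA in an epithelial library, taken as the median level of 21 to 23 fibroblast genes relative to the fibroblast library of the same culture, was 4.4 to 9.49% with vehicle, 5.34 to 17.4% with EC, 4.87 to 16.5% with IPFc and 26.7 to 31.7% with TGF-β. The share of epithelial RNA in a fibroblast library was 17.6 to 32.9% with vehicle, 39.8 to 60.7% with EC, 11.8 to 34.8% with IPFc and 1.04 to 4.11% with TGF-β. Each share is a ratio to the partner library, which changed as well. The summed level of the fibroblast gene list was 1566 to 2571 CPM with vehicle and 1307 to 2876 with EC in epithelial libraries. In fibroblast libraries it was 22360 to 26870 and 13930 to 22360. A higher share with EC is thus not by itself a higher amount of fibroblast RNA. With IPFc the list was at 1865 to 4559 and 23140 to 31460 CPM, and with TGF-β at 15730 to 17790 and 47040 to 55880. In such bulk libraries fewer cells of a type and less RNA per cell cannot be told apart. Beside each main result, a member's level in an epithelial library is therefore given as a percentage of its level in the fibroblast library of the same culture (14 cultures have both), to be read against that share.

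With vehicle control, most members were higher in fibroblast libraries. Of 55 tested over both fractions, 38 were higher in fibroblast libraries, where 28.2% of all 18364 genes tested were, and 4 were higher in epithelial libraries, where 27.8% of all were. Per kilobase of merged exons, the 5 members with the highest levels in fibroblast libraries were Timp2 at 490 CPM per kb, Mmp2 at 154, Mmp14 at 117, Timp3 at 76.8 and Mmp19 at 74.6. The gelatinase Mmp2 cuts denatured collagen and type IV collagen, Mmp14 is the membrane-type MMP that activates it together with Timp2, and Timp3 is the TIMP that stays bound to the matrix. In epithelial libraries the order per kb was Timp2 at 107, the sheddase Adam9 at 66.1, Mmp14 at 31.1, the Notch and cadherin sheddase Adam10 at 26.5 and the membrane-type Mmp15 at 15.8. The neighbours Mmp15 and Timp3 (15.7 per kb) in that order overlapped between libraries, as did Timp3 and Mmp19 in the fibroblast order.

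The 4 members higher in epithelial libraries were Adam28, an ADAM of leukocytes and epithelia (59.2, 71.3, 55.6 and 41.2 CPM against 4.59, 5.38 and 7.12 in fibroblasts, log2 difference 3.27, SE 0.33, adjusted p = 2.5e-09), Mmp23 (2.31), Mmp15 (1.27) and Adamts9 (0.76, adjusted p = 0.0181). All 3 mice with both vehicle libraries had the higher level in the epithelial library for each of them. Among the 38 members higher in fibroblasts, the log2 difference ranged from -0.75 for Adam10 to -6.27 for Mmp10, and it was -3.65 (SE 0.25, adjusted p = 2.8e-12) for Timp1 and -4.36 (SE 0.38, adjusted p = 1.8e-10) for Adamts7. Adam9 and Adam17, the sheddase of TNF-α and of EGF receptor ligands, were in neither set, with levels that overlapped between the fractions. In the 3 vehicle cultures the epithelial level was 2.74 to 11.1% of the fibroblast level for Adamts7, 5.76 to 8.44% for Timp1 and 3.42 to 7.98% for Mmp2, beside shares of fibroblast RNA of 4.4 to 9.49%, whereas it was 78.6 to 115% for Adam9 and 50.3 to 74.1% for Adam12.

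**Figure D1:**
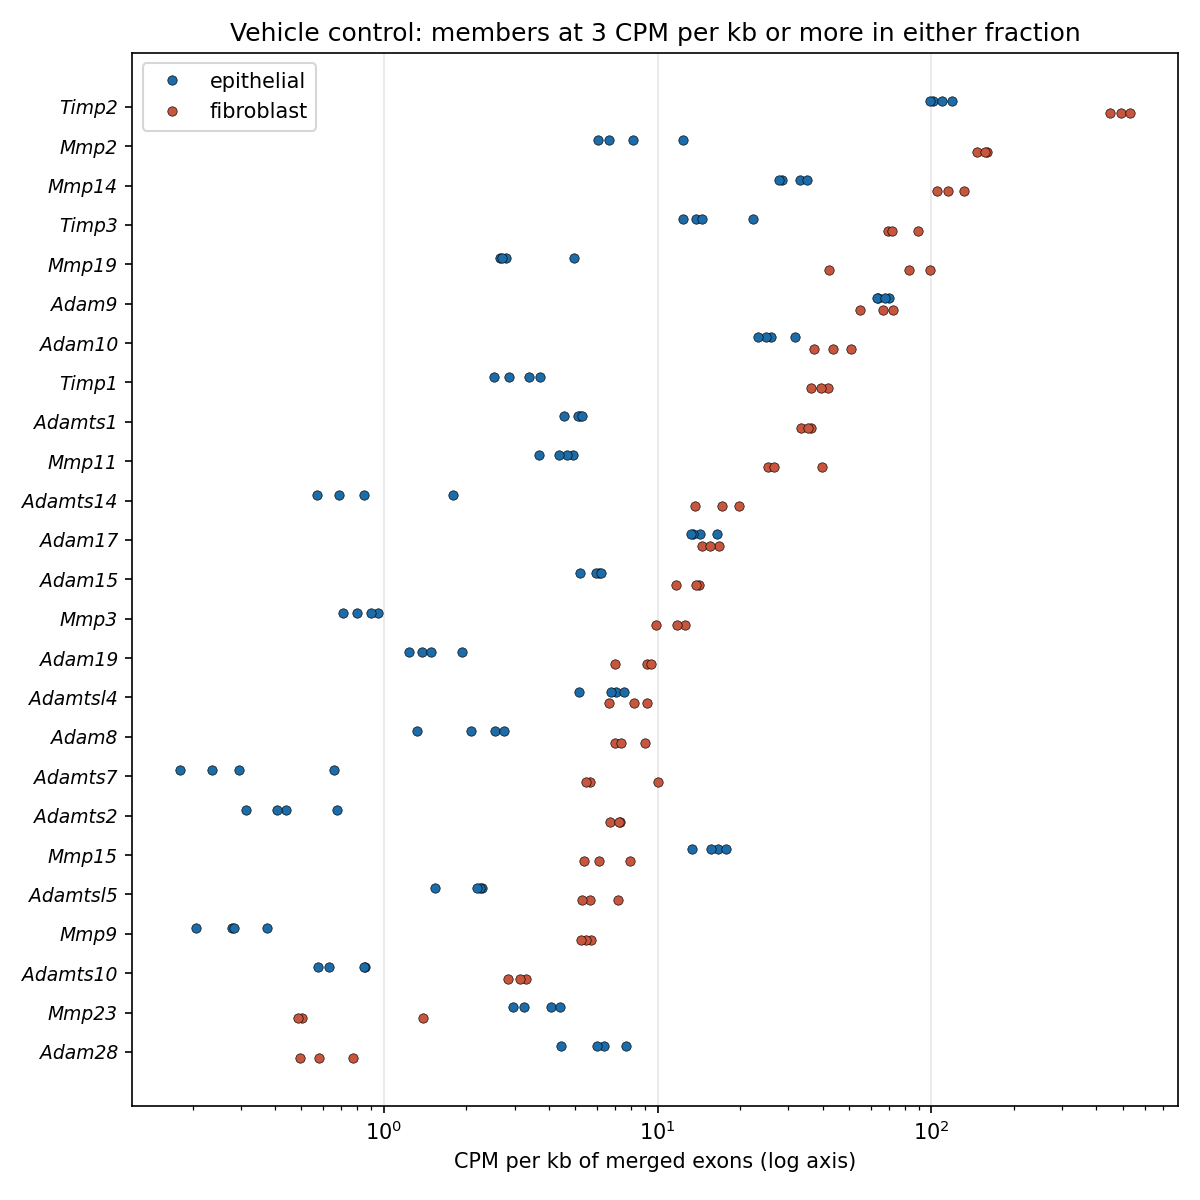
Levels of the 25 members at 3 CPM per kb of merged exons or more in either fraction with vehicle, on a log axis, 1 point per library (4 epithelial, 3 fibroblast). Most members lie further right in fibroblasts, Timp2 being highest in both fractions (490 and 107 CPM per kb), while Adam28, Mmp15 and Mmp23 lie further right in epithelial libraries.

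EC raised 7 and lowered 3 of the 50 members tested in epithelial libraries, 14.0% and 6.00% of them, while 1.96% of all 18024 genes tested were higher and 2.44% lower. The stromelysins Mmp10 and Mmp3, which cut proteoglycans, laminin and other MMP precursors, the collagenase Mmp13, the basement membrane protease Mmp19, the aggrecanase Adamts4, Adamts7, which cuts cartilage oligomeric matrix protein, and the inhibitor Timp1 rose. Timp3, Adam12, an ADAM of mesenchymal cells, and Adamtsl1 fell. The median log2 fold change over the members tested was 0.2, against 0.0 over all genes.

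Mmp10 had 0, 1, 0 and 1 reads in the epithelial vehicle libraries and 0.781, 0.887, 1.19 and 1.85 CPM with EC. Its 62 reads with EC against 2 with vehicle were 32.4 times as many per read counted (exact 95% counting interval 8.61 to 274), and edgeR gave an adjusted p of 0.00049. The increase was seen in 4 of 4 mice and the groups did not overlap. Adamts7 had 4.18, 1.14, 1.49 and 1.87 CPM with vehicle and 13.6, 20, 7.99 and 12.4 with EC (log2 fold change 2.65, SE 0.29, adjusted p = 4.1e-06). Adamts4 had 0.48, 0.568, 0.205 and 0.17 CPM with vehicle and 2.06, 2.74, 1.79 and 0.781 with EC (2.39, SE 0.41, adjusted p = 0.0008). Timp1 had 7.27, 6.65, 4.92 and 5.6 CPM with vehicle and 12.2, 13.9, 7.99 and 19 with EC (1.08, SE 0.2, adjusted p = 0.00183). For these genes every EC library lay above every vehicle library. The other members that rose were Mmp13 (3.28, adjusted p = 0.00821, from 9 reads in the vehicle libraries together), Mmp3 (1.78, adjusted p = 0.0111) and Mmp19 (1.0, adjusted p = 0.00417).

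Timp3 showed the most certain change with EC in epithelial libraries, from 112, 101, 118 and 182 CPM with vehicle to 52.8, 58, 45.6 and 75.3 (log2 fold change -1.13, SE 0.11, adjusted p = 6.9e-07), with no overlap between the groups. Adamtsl1 was low, with 0.343, 0.973, 0.923 and 0.764 CPM and then 0, 0.0739, 0.119 and 0.195, or 44 reads against 5 (-2.94, SE 0.7, adjusted p = 0.0148). Adam12 fell by 0.75 on the log2 scale (adjusted p = 0.0277).

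The epithelial level with EC was 4.8 to 16.1% of the fibroblast level for Adamts7, at or under the share of fibroblast RNA in 4 of 4 cultures, and 4.82 to 12.9% for Mmp19, likewise. It was above the share in 4 of 4 cultures for Mmp13 (6.16 to 43.1%), Timp3 (12.7 to 26.5%) and Adam12 (22.7 to 156%), and in 2 or 3 of 4 for Mmp10, Adamts4, Mmp3 and Timp1. When the share of the other fraction was subtracted from the counts, 1 of the 10 calls, Adamtsl1, remained, Adamts7 turned to -3.59 (adjusted p = 0.636) and Timp3 was at -2.06 (adjusted p = 0.0733). The partner library was taken as deposited, so that part of what was subtracted can be the fraction's own RNA. Counts below 0 after subtraction were set to 0. Log2 values of members at or under the share, such as Adamts7, can therefore rest on that floor.

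In fibroblast libraries EC raised 5 and lowered 8 of the 56 members tested (8.93% and 14.3%), beside 4.28% and 2.84% of all 18048 genes tested. Adamts7, Mmp10, Mmp13, the metalloelastase Mmp12 and Adam28 rose. Timp3, Mmp2, the membrane-type Mmp16, the procollagen N-proteinase Adamts14, Adamts6, Adamts10, Adam23, which lacks a catalytic site, and Adamtsl3 fell. The median log2 fold change over the members was -0.22, against -0.02 over all genes.

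Adamts7 had 35.9, 34.7 and 63.7 CPM with vehicle and 84.6, 145, 159 and 135 with EC (log2 fold change 1.56, SE 0.18, adjusted p = 0.00013). Mmp10 had 2.86, 3.86 and 3.59 CPM with vehicle and 12.4, 7.78, 14.9 and 9.25 with EC (1.69, SE 0.25, adjusted p = 0.0007). Mmp12 had 1.43, 0.873 and 1.2 CPM with vehicle and 5.6, 4.07, 4.07 and 5.17 with EC (2.01, SE 0.33, adjusted p = 0.00186). The groups did not overlap for any of them, nor for Mmp13, which had 1.8, 3.27 and 1.57 CPM with vehicle and 11.6, 8.27, 6.49 and 5.51 with EC (1.74, SE 0.31, adjusted p = 0.00312). Mmp10, Mmp12 and Mmp13 all lie in the cluster described above. Mmp1a, Mmp1b, Mmp8 and Mmp27 of that cluster were also tested in fibroblasts and not called, with 37 to 64 reads each over all libraries. Mmp3, the stromelysin of the same cluster, had 22.6, 21.1 and 17.8 CPM with vehicle and 51.2, 32, 28.8 and 23.2 with EC, and was not called. The fifth member that rose, Adam28 (1.22, adjusted p = 0.0365), had 9.01 to 35.7% of its epithelial level in the fibroblast EC libraries, under the share of epithelial RNA in 4 of 4 cultures.

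Timp3 went from 563, 730 and 584 CPM to 241, 314, 343 and 255 in fibroblasts (log2 fold change -1.17, SE 0.15, adjusted p = 0.00026), much as in the epithelial libraries. Adamtsl3 went from 6.17, 7.49 and 7.43 CPM to 0.8, 3.79, 2.12 and 1.65 (-1.89, SE 0.26, adjusted p = 0.00047), and Adamts6 from 4.89, 8.73 and 4.6 to 1, 3.86, 5.46 and 1.21, where the groups overlapped (-1.12, SE 0.3, adjusted p = 0.0351). The other members that fell did so by less, with Mmp16 at -0.8 (adjusted p = 0.0145), Mmp2 at -0.7 (adjusted p = 0.00252), Adamts10 at -0.58 (adjusted p = 0.0294), Adamts14 at -0.51 (adjusted p = 0.0493) and Adam23 at -0.5 (adjusted p = 0.0494). All 8 were above the share of epithelial RNA in 4 of 4 cultures. This says little, because each was at 113% or more of its epithelial level in every EC culture. The share was 39.8 to 60.7% with EC against 17.6 to 32.9% with vehicle. The summed level of the fibroblast gene list was 13930 to 22360 CPM with EC against 22360 to 26870 with vehicle. The part of the share in the decreases was not tested. Leaving out mouse 3 or mouse 4 left 5 of the 13 calls each, and leaving out mouse 2 left 8. After subtraction of the other fraction Adamts7 and Mmp10 remained, and no member was called lower.

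**Figure D2:**
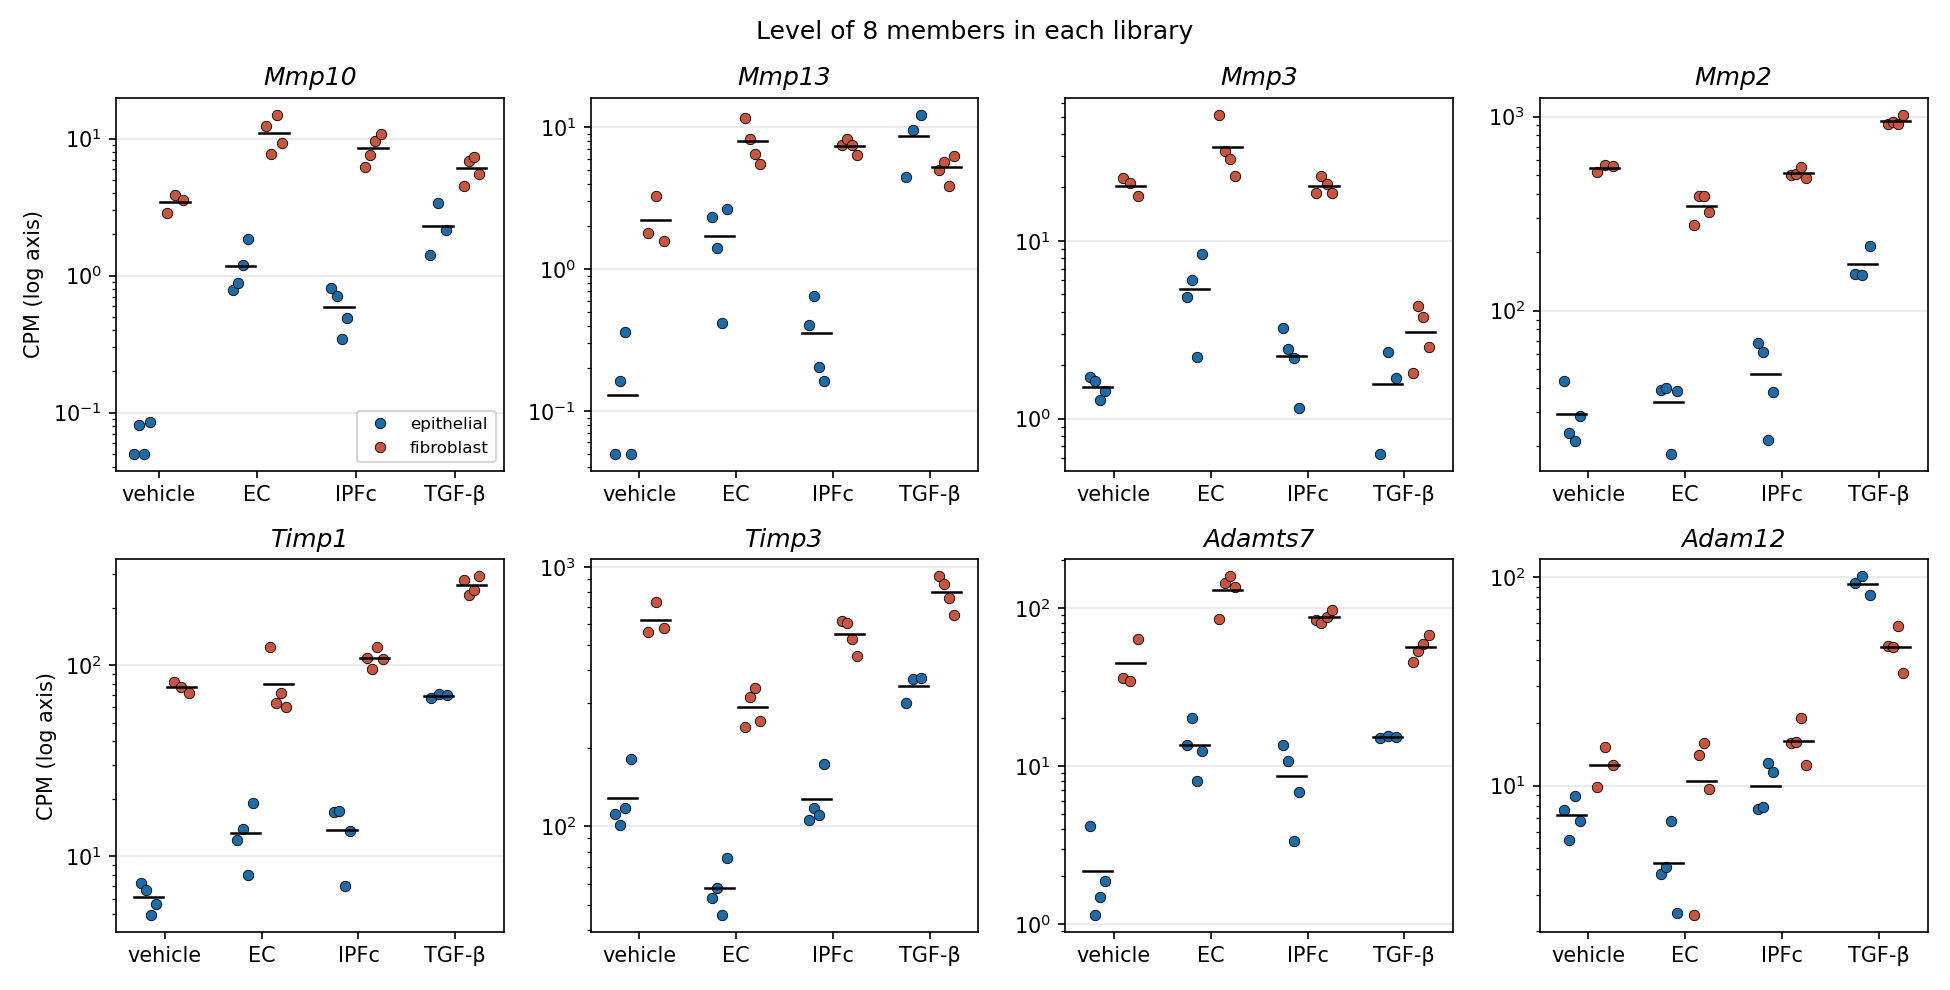
CPM of 8 members in each library, on log axes, by treatment (x axis) and fraction (blue epithelial, red fibroblast), with bars at group means. Points at the bottom edge, drawn at 0.05, are libraries without a read (Mmp10 and Mmp13 with vehicle), Timp3 lies lowest with EC in both fractions (45.6 to 75.3 and 241 to 343 CPM), and Adam12 with TGF-β is higher in epithelial (81.8 to 101) than in fibroblast libraries (34.8 to 58).

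IPFc raised 10 and lowered 0 of the 50 members tested in epithelial libraries, beside 2.57% of all genes higher and 1.53% lower, with 22 members at an unadjusted p under 0.05 and 11 higher and 1 lower by DESeq2. These were Mmp10, Mmp19 and Mmp23, Timp1, the sheddases Adam9 and Adam19, and Adamts4, Adamts6, Adamts7 and Adamts14. Adam9, a sheddase that the epithelial libraries held at a level close to that of fibroblasts, rose from 304, 277, 275 and 294 CPM with vehicle to 499, 489, 564 and 530 (log2 fold change 0.84, SE 0.09, adjusted p = 2e-06). The Adam9 groups were far apart relative to their spread, and EC left the gene at 285, 297, 264 and 252 CPM.

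Adamts7 had 13.5, 10.7, 3.35 and 6.88 CPM with IPFc (log2 fold change 1.92, SE 0.29, adjusted p = 0.00035), of which the third lay below the highest vehicle library. Timp1 had 17.1, 17.2, 6.98 and 13.5 CPM (1.11, SE 0.2, adjusted p = 0.00179), with the third library again inside the vehicle range. Mmp19 had 24.2, 36.5, 14.8 and 26.1 CPM against 9.87, 9.41, 9.59 and 17.5 with vehicle (1.12, SE 0.2, adjusted p = 0.00199). The IPFc library of mouse 3 was the lowest of the group for Adamts7, Timp1 and Mmp19, and it also had the lowest share of fibroblast RNA, 4.87%. Adamts4 had 2.27, 1.72, 1.09 and 2.13 CPM, above every vehicle library (2.33, SE 0.41, adjusted p = 0.0015). Mmp10 had 33 reads with IPFc against 2 with vehicle, 17 times as many per read counted (exact 95% counting interval 4.35 to 146, adjusted p = 0.00835). The other members that rose were Adamts6 (1.72, adjusted p = 0.0317), Adamts14 (1.15, adjusted p = 0.0173), Adam19 (0.92, adjusted p = 0.0049) and Mmp23 (0.53, adjusted p = 0.0442). The call of Adamts6 was kept under 6 of 13 alternatives and that of Mmp23 under 5 of 13.

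The epithelial level with IPFc was 128 to 168% of the fibroblast level for Adam9, and it was above the share of fibroblast RNA in 4 of 4 cultures for Adam9, Adam19 and Mmp23. It was at or under the share in all 4 for Adamts7 (3.63 to 15.3%), Mmp19 (4.54 to 12.5%) and Mmp10 (3.38 to 12.4%). With the other fraction subtracted, Adam9 alone of the 10 calls remained (0.92, adjusted p = 1.5e-04), and Adamts7 (-3.37), Timp1 (-0.79) and Mmp19 (-0.06) changed sign. Without the mouse as a block 5 calls remained.

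In fibroblasts IPFc raised 3 and lowered 0 of the 56 members tested (5.36%), beside 0.305% of all genes higher and 0.144% lower, with 9 members at an unadjusted p under 0.05 and 4 higher and 0 lower by DESeq2. Mmp13 had 7.46, 8.24, 7.52 and 6.37 CPM against 1.8, 3.27 and 1.57 with vehicle (log2 fold change 1.69, SE 0.31, adjusted p = 0.0171). Mmp10 had 6.19, 7.6, 9.63 and 10.8 CPM against 2.86, 3.86 and 3.59 (1.35, SE 0.25, adjusted p = 0.0171). Adamts7 had 83.5, 80.8, 88 and 96.8 CPM against 35.9, 34.7 and 63.7 (1.0, SE 0.18, adjusted p = 0.0131). The groups did not overlap for these 3 genes, which were also called higher in fibroblasts with EC, a comparison that shares the vehicle libraries. Mmp12, called with EC, had 2.39, 3.15, 3.19 and 3.61 CPM with IPFc and was not called. Without mouse 3 or without mouse 4, and with the other fraction subtracted, 0 of the 3 calls remained, and without the block 1, Mmp13, did.

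TGF-β moved more members than EC or IPFc in both fractions. In epithelial libraries it raised 27 and lowered 2 of the 50 tested (54.0% and 4.00%), while 21.0% of all genes tested were higher and 20.1% lower, and the median log2 fold change was 0.99 over the members against 0.03 over all genes. By group, 9 of 15 MMPs, 8 of 13 ADAMTSs, 6 of 15 ADAMs, all 3 TIMPs tested and 1 of 4 ADAMTS-like genes rose. Adam28 and Adamts9 fell (both -0.68, adjusted p = 8.2e-05 and 0.00105).

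Adam12 showed the lowest adjusted p of the members, with 93.9, 101 and 81.8 CPM against 7.68, 5.52, 8.92 and 6.79 with vehicle (log2 fold change 3.69, SE 0.18, adjusted p = 4.2e-12). Its epithelial level was 187 to 252% of that in the fibroblast libraries of the same cultures, whose share was 26.7 to 31.7%. Timp1 had 67.1, 70.7 and 70.1 CPM (3.63, SE 0.21, adjusted p = 3.2e-11), and Mmp2 had 155, 153 and 216 against 43.6, 23.4, 21.3 and 28.6 (2.83, SE 0.2, adjusted p = 4.2e-10). The epithelial level of Timp1 was 25.7 to 30.5% of the fibroblast level, above the share of fibroblast RNA in 1 of 3 cultures, and that of Mmp2 was 17.5 to 22.6%, under the share in all 3. Adamts10, an ADAMTS linked to fibrillin microfibrils, had 43.5, 38.3 and 45.9 CPM against 11.2, 8.27, 11.1 and 7.55 (2.24, SE 0.16, adjusted p = 6.9e-10) at 62.1 to 76.7% of the fibroblast level. For these 4 genes the TGF-β libraries lay above all vehicle libraries.

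Mmp13 rose (log2 fold change 5.79, SE 0.67, adjusted p = 5.9e-07), from 9 reads in the 4 vehicle libraries to 4.49, 9.49 and 12.2 CPM, which was 83.7 to 264% of its fibroblast level. Mmp10 had 1.42, 3.37 and 2.16 CPM, or 92 reads against 2, 69.8 times as many per read counted (exact 95% counting interval 18.8 to 585, adjusted p = 3.5e-06). The other MMPs that rose were Mmp24 (2.94, adjusted p = 0.04, with 17 reads against 3, a ratio of 8.6 with an exact 95% counting interval of 2.49 to 45.8), Mmp19 (2.0, adjusted p = 2.1e-07), Mmp16 (1.59, adjusted p = 0.00462), Mmp11 (1.35, adjusted p = 3.6e-07), Mmp14 (0.89, adjusted p = 1.2e-06) and Mmp15 (0.57, adjusted p = 0.00088). Thus 4 of the 5 membrane-type MMPs tested were called higher, 1 of them, Mmp24, on few reads and with the call kept under 2 of 11 alternatives (adjusted p 0.0389 to 0.155 over them). The stromelysin Mmp3 was not called.

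Among the ADAMTSs, the increase was 5.39 for Adamts6 (adjusted p = 1.6e-09), 5.18 for Adamts12 (adjusted p = 1.8e-08), 4.71 for Adamts4 (adjusted p = 6.5e-09), 3.13 for Adamts7 (adjusted p = 6.6e-08), 2.54 for the procollagen N-proteinase Adamts2 (adjusted p = 6.4e-08), 2.44 for Adamts14 (adjusted p = 1e-06) and 0.54 for Adamts5 (adjusted p = 0.0137). Adamtsl3 rose by 3.57 (adjusted p = 3.4e-06). Among the ADAMs, Adam23 rose by 2.47 (adjusted p = 2.3e-07), Adam19 by 2.38 (adjusted p = 6.5e-09), Adam11 by 1.48 (adjusted p = 0.0308), Adam8 by 1.36 (adjusted p = 4.4e-06) and Adam10 by 0.67 (adjusted p = 1.3e-05). The call of Adam11 was kept under 6 of 13 alternatives. Timp3 rose by 1.46 (adjusted p = 3e-09), from 112, 101, 118 and 182 CPM to 299, 371 and 372, and Timp2 by 0.51 (adjusted p = 0.00081).

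Of the 27 members that rose, 12 were above the share of fibroblast RNA in all 3 cultures (Adam8, Adam10, Adam12, Adam19, Adamts5, Adamts10, Mmp11, Mmp13, Mmp14, Mmp15, Timp2 and Timp3), 4 were above it in none (Adam23, Adamts4, Adamts14 and Mmp2) and 11 in some. With the other fraction subtracted, 11 of the 29 calls remained, Adam8, Adam10, Adam12 (4.09, adjusted p = 1.0e-06), Adam19, Adamts6, Adamts10, Adamts12, Mmp10, Mmp13 (6.83, adjusted p = 9.4e-04), Mmp15 and Mmp19. Under it Timp2 turned to -0.53 (adjusted p = 0.0177), and Mmp14, Adamts4 and Adamts14 changed sign without passing the test.

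**Figure D3:**
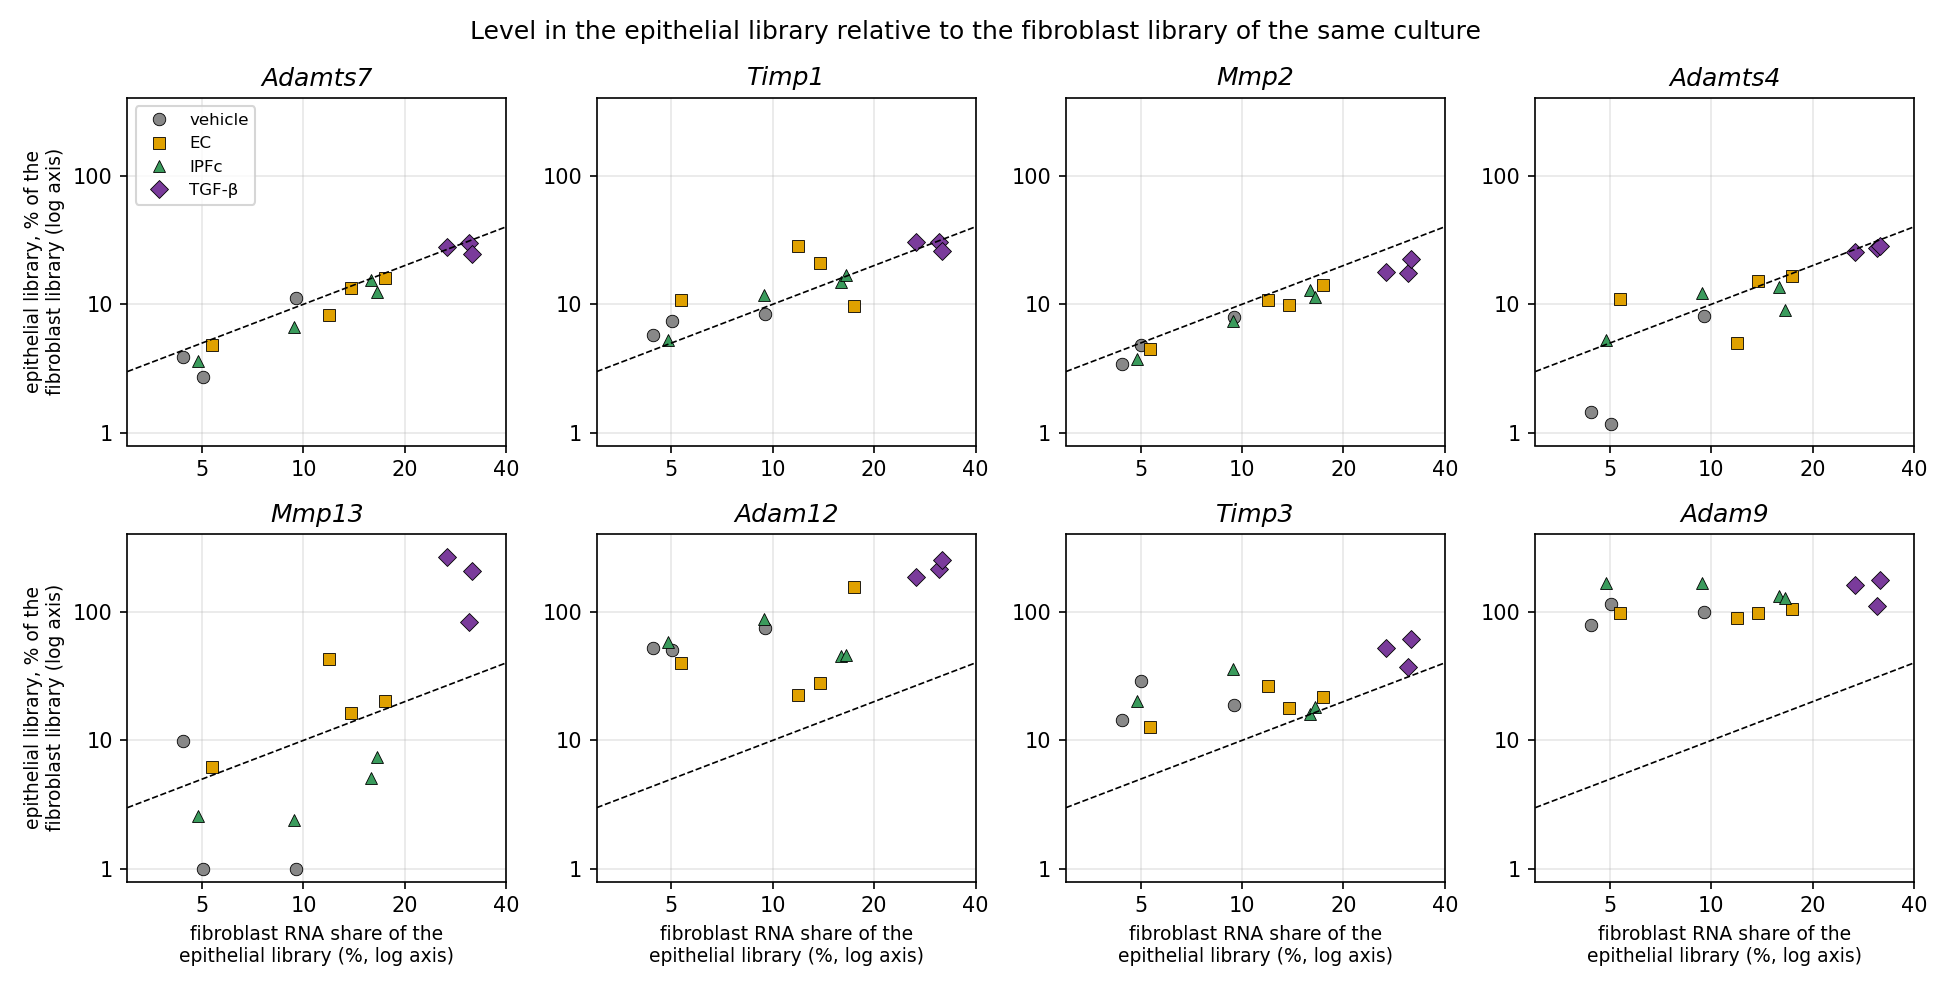
Level of 8 members in the epithelial library as a percentage of the fibroblast library of the same culture (y, log axis, values under 1% drawn at 1%) against the share of fibroblast RNA in that epithelial library (x, log axis), 1 point for each of 14 cultures, with the dashed line where both are equal. Adamts7, Timp1, Mmp2 and Adamts4 lie around or under the line with TGF-β (17.5 to 30.5%), whereas Mmp13, Adam12, Timp3 and Adam9 lie above it in the 3 TGF-β cultures.

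In fibroblasts TGF-β raised 12 and lowered 19 of the 56 members tested (21.4% and 33.9%), beside 6.39% and 12.8% of all genes, with a median log2 fold change of -0.01 over the members and -0.02 over all genes. Timp1, Mmp2, Mmp10, Mmp13, Mmp24, Adam12, Adam19 and 5 ADAMTS and ADAMTS-like genes rose. The stromelysins Mmp3 and Mmp11, the gelatinase Mmp9, the proteoglycan-cutting Adamts1, Adamts5 and Adamts9, the sheddases Adam8, Adam9, Adam10 and Adam17 and the inhibitors Timp2 and Timp4 were among those that fell. So within the stromelysins, gelatinases, proteoglycan-cutting ADAMTSs and TIMPs some members rose and others fell.

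Timp1 had 278, 234, 248 and 292 CPM against 81.9, 77.1 and 71.2 with vehicle (log2 fold change 1.92, SE 0.18, adjusted p = 5.5e-07). Adamts6 had 33.5, 33.8, 33.7 and 24.6 CPM against 4.89, 8.73 and 4.6 (2.41, SE 0.28, adjusted p = 5.2e-06). Adamts4 had 30.1, 32.9, 34.1 and 31.4 CPM against 5.64, 12.7 and 13.4 (1.67, SE 0.2, adjusted p = 6e-06). Adam12 had 46.7, 46.2, 58 and 34.8 CPM against 9.85, 15.4 and 12.6 (1.9, SE 0.28, adjusted p = 7.2e-05). None of these groups overlapped. The other members that rose were Adamts12 (1.57, adjusted p = 0.00125), Mmp24 (1.34, adjusted p = 0.0473, kept under 5 of 13 alternatives), Mmp13 (1.27, adjusted p = 0.00724), Adam19 (1.19, adjusted p = 0.00012), Mmp10 (0.93, adjusted p = 0.0132), Mmp2 (0.85, adjusted p = 6.2e-05), Adamts10 (0.79, adjusted p = 0.00092) and Adamtsl3 (0.78, adjusted p = 0.0229).

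Adamts5, the main aggrecan-cutting ADAMTS of mice, went from 30.5, 22.6 and 24.4 CPM to 5.86, 9.75, 8.01 and 6.71 (log2 fold change -1.78, SE 0.16, adjusted p = 3.2e-07). Mmp3 went from 22.6, 21.1 and 17.8 CPM to 1.8, 4.28, 3.72 and 2.54 (-2.71, SE 0.26, adjusted p = 4.8e-07), and Adamts1 from 183, 198 and 193 to 37, 53.5, 55.5 and 77.4 (-1.78, SE 0.19, adjusted p = 1.7e-06). No TGF-β library reached the vehicle range for these genes. Adam28 went from 4.59, 5.38 and 7.12 CPM to 0.703, 0.935, 0.186 and 0.363 (-3.35, SE 0.42, adjusted p = 1.5e-05), at or under the share of epithelial RNA in every culture with either treatment. Further decreases were -3.85 for Adam22 (adjusted p = 0.00201), -3.17 for Timp4 (adjusted p = 0.00763), -2.16 for Adamts9 (adjusted p = 0.00012), -2.1 for Mmp23 (adjusted p = 0.00549), -1.38 for Mmp15 (adjusted p = 2.6e-05), -1.19 for Mmp16 (adjusted p = 0.00013), -1.18 for Adamtsl4 (adjusted p = 0.00018), -1.09 for Mmp9 (adjusted p = 4.9e-05) and -1.01 for Adam8 (adjusted p = 0.00021). Smaller ones were those of Mmp19 (-0.63, adjusted p = 0.00101), Adam9 (-0.58, adjusted p = 0.00148), Adam17 (-0.54, adjusted p = 0.00345), Adam10 (-0.53, adjusted p = 0.00762), Mmp11 (-0.44, adjusted p = 0.0158) and Timp2 (-0.4, adjusted p = 0.0468). In the fibroblast vehicle libraries Adam22 was at 10.8 to 71.5% of its epithelial level, above the share of epithelial RNA in 2 of 3 cultures. Mmp23 was at 12.3 to 49.9%, above it in 1 of 3.

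With TGF-β, all 12 members that rose and 15 of the 19 that fell were above the share of epithelial RNA in all 3 cultures with both libraries. This says little, because the share was 1.04 to 4.11% with TGF-β, against 17.6 to 32.9% with vehicle. The summed level of the fibroblast gene list was 47040 to 55880 CPM with TGF-β and 22360 to 26870 with vehicle. The part of this change in the calls was not tested. With the other fraction subtracted 13 of the 31 calls remained, among them Timp1 (1.59, adjusted p = 0.00224), Adamts4, Adamts6, Mmp3 (-3.08, adjusted p = 5.3e-04), Adamts1 and Adamts5, and Mmp23 changed sign.

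**Figure D4:**
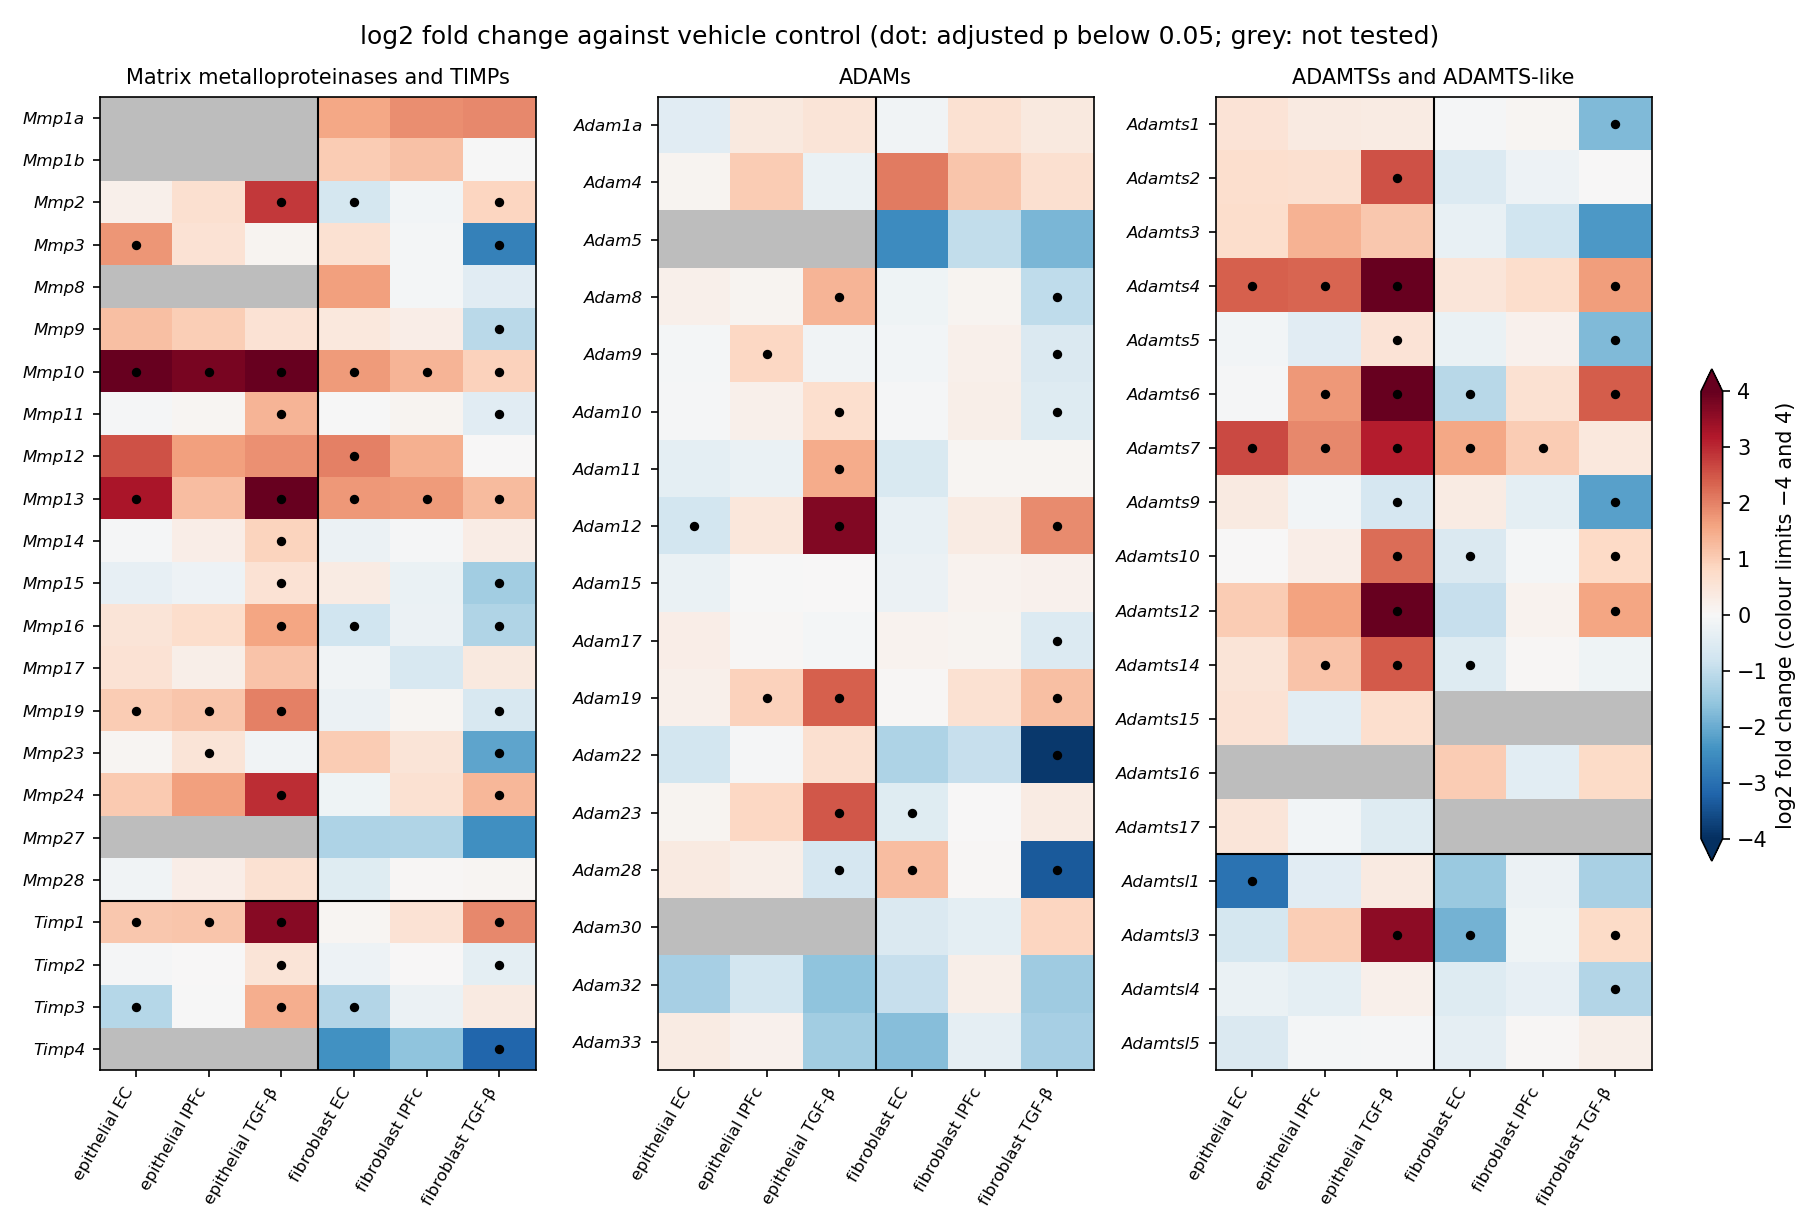
log2 fold change of the members tested against vehicle (rows, grouped by family) in the 6 comparisons (columns, epithelial left of the line and fibroblast right of it), red for higher and blue for lower, with a dot where the adjusted p was below 0.05 and grey where a member was not tested. Mmp10 is the member with a dot in all 6 columns, the epithelial TGF-β column holds 29 dots of which 27 are red, and the fibroblast IPFc column holds 3.

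Between treatments, EC and IPFc differed in epithelial libraries for 6 of the 50 members, 12.0%, where 4.17% of all genes were called in either direction. Adam9 (log2 difference -0.91, SE 0.09, adjusted p = 2.7e-07), Timp3 (-1.11, SE 0.11, adjusted p = 4.8e-07), Adam12 (-1.19), Adam19 (-0.71) and Adamts6 (-1.76) were lower with EC than with IPFc, and Adamts9 (0.47, adjusted p = 0.0457) was higher. In fibroblasts they differed for 16 of 56 members, 28.6%, where 10.4% of all genes did. Timp3 (-0.94, adjusted p = 0.00032), Adamtsl3 (-1.74, adjusted p = 0.00024), Adamts6 (-1.72) and Mmp2 (-0.58) were among the 12 lower with EC, and Adamts7 (0.56, adjusted p = 0.0316), Mmp3 (0.69, adjusted p = 0.045), Adam28 and Mmp15 were the 4 higher with it. Of these 16, 4 or 5 remained when mouse 2, 3 or 4 was left out, 4 without the block, 5 in separate fits and 0 with the other fraction subtracted. Timp3 was lower with EC than with IPFc in all 4 mice of both fractions, and its call was lost in both with the other fraction subtracted (-0.72, adjusted p = 0.819, and -0.52, adjusted p = 0.468).

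IPFc, which contains TGF-β, and TGF-β alone differed for 30 of 50 members in epithelial libraries (beside 37.2% of all genes), 26 of them lower with IPFc, and for 30 of 56 in fibroblasts (53.6%, beside 17.4% of all genes), 10 of them lower with IPFc. Timp1 was lower with IPFc than with TGF-β in both (-2.52, SE 0.2, adjusted p = 3.6e-09, and -1.34, SE 0.16, adjusted p = 7.4e-06). In fibroblasts Mmp3 (2.65, adjusted p = 3e-07), Adamts5 (1.97, adjusted p = 4.5e-08) and Adamts1 (1.86, adjusted p = 5.3e-07) were higher with IPFc. Adamts7 was lower with IPFc in epithelial libraries (-1.21, adjusted p = 0.00155) and higher with IPFc in fibroblasts (0.58, adjusted p = 0.0145).

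The 4 TIMPs behaved differently across the 8 groups. Timp2 had group means between 459 and 637 CPM in epithelial and between 1600 and 2210 in fibroblast libraries. With TGF-β it was called higher in epithelial libraries and lower in fibroblasts, as given above. Timp1 ran in epithelial libraries from 6.11 ± 1.05 CPM (mean ± SD, n = 4) with vehicle over 13.3 ± 4.57 with EC and 13.7 ± 4.78 with IPFc to 69.3 ± 1.93 (n = 3) with TGF-β, and in fibroblasts from 76.7 ± 5.38 (n = 3) with vehicle over 80.1 ± 30.6 with EC and 109 ± 12 with IPFc to 263 ± 26.7 with TGF-β. The EC and IPFc levels of Timp1 did not differ beyond their spread in epithelial libraries, and in fibroblasts EC overlapped vehicle. The library that made EC overlap IPFc as well was that of mouse 1, with 125 CPM and the fewest reads, the other EC libraries having 63.2, 71.7 and 60. Timp3 was lowest with EC in both fractions and highest with TGF-β, although in fibroblasts the TGF-β libraries (921, 860, 757 and 651 CPM) overlapped vehicle and were not called. Timp4 had at most 3 reads in any epithelial group, and in fibroblasts 83 reads with vehicle, 14 with EC, 35 with IPFc and 10 with TGF-β. In RefSeq Timp1, Timp3 and Timp4 overlap Syn1, Syn3 and Syn2. Whether the counting used strand is not given in the sources used here, and without strand reads of overlapping genes cannot be told apart.

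Adamts7 and Mmp10 shared an order of levels in fibroblasts that differed from that of Timp1. Adamts7 was at 44.7 ± 16.4 CPM with vehicle (n = 3), 56.3 ± 9.12 with TGF-β, 87.3 ± 7.02 with IPFc and 131 ± 32.4 with EC (n = 4 each), and Mmp10 at 3.43 ± 0.517, 6.06 ± 1.26, 8.56 ± 2.07 and 11.1 ± 3.18 in the same order. The neighbours vehicle and TGF-β overlapped for Adamts7, as did IPFc and EC, and for Mmp10 each treatment overlapped the next. Over the 15 fibroblast libraries, the members whose log2 CPM followed Mmp10 most closely were Adamts7 (Pearson r = 0.8), Mmp13 (0.77) and Mmp12 (0.74), and those closest to Timp1 were Mmp2 (0.81), Adamts10 (0.8) and Adamts6 (0.79). Over the 15 epithelial libraries they were Mmp13 (0.86), Timp1 (0.85) and Adamts7 (0.83) for Mmp10, and Adamts12 (0.95), Mmp2 (0.94) and Mmp11 (0.92) for Timp1. These are descriptions over libraries of 4 mice that share the share of the other fraction's RNA, which differs between treatments, and Mmp10 counts were low.

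Whether a treatment acted differently on the fractions was tested as an interaction. For EC it was called for 6 of 55 members, 10.9%, beside 4.59% of all 18364 genes, all with the more positive response in epithelial libraries, led by Mmp19 (log2 difference between the fractions' responses 1.23, SE 0.26, adjusted p = 0.00583), Adamts4 (1.92, SE 0.44, adjusted p = 0.0103), Mmp10 (3.04, SE 0.8, adjusted p = 0.027) and Adamts2 (1.21, SE 0.32, adjusted p = 0.03). No such call was left without the mouse as a block or without mouse 4, and 2 were left without mouse 2 and 2 without mouse 3. For IPFc it was called for 1, Adam9 (0.66, SE 0.14, adjusted p = 0.0306), or 1.82% beside 0.229% of all genes, and that call was lost when any mouse was left out. For TGF-β it was called for 35 of 55, 63.6% beside 27.5% of all genes and with a median over all genes of 0.21, led by Mmp19 (2.66, SE 0.27, adjusted p = 3.2e-08), Adamts5 (2.35, SE 0.24, adjusted p = 3.3e-08), Mmp11 (1.82, SE 0.19, adjusted p = 6.4e-08) and Adam8 (2.39, SE 0.26, adjusted p = 7.2e-08). All 35 were higher in the epithelial than in the fibroblast response, in libraries where the share of fibroblast RNA went from 4.4 to 9.49% up to 26.7 to 31.7%. With the other fraction subtracted, 0 of the 6 EC calls remained and 3 other members were called in the opposite direction, 0 members were called for IPFc, and for TGF-β 17 were called higher and 3 lower in the epithelial response. Calls in the opposite direction can rest on counts that the subtraction set to 0, which was not tested.

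Genes of plasminogen activation and of the processing of MMPs and collagens were compared as a further list of 20 genes. Of 17 tested in epithelial libraries, 1 rose and 2 fell with EC, 1 rose and 1 fell with IPFc, and 8 rose and 3 fell with TGF-β, where 1.96% and 2.44%, 2.57% and 1.53%, and 21.0% and 20.1% of all genes were higher and lower. Tissue plasminogen activator, Plat, rose with EC (log2 fold change 1.37, SE 0.16, adjusted p = 7.4e-06) and TGF-β (1.46, adjusted p = 6.7e-07), and Tll1, a procollagen C-proteinase, rose by 5.23 with TGF-β (SE 0.35, adjusted p = 2.6e-10). In fibroblasts 2 rose and 2 fell with EC, 0 were called with IPFc (3 at an unadjusted p under 0.05, 0 by DESeq2), and 6 rose and 2 fell with TGF-β, beside 4.28% and 2.84%, 0.305% and 0.144%, and 6.39% and 12.8% of all genes. The proprotein convertase Furin, which activates membrane-type MMPs and ADAMs, rose with TGF-β in both fractions (0.89, adjusted p = 1.2e-05, and 0.81, adjusted p = 0.00115), and Reck, a membrane-anchored MMP inhibitor, fell with EC in fibroblasts (-0.73, SE 0.19, adjusted p = 0.026). Of 16 cathepsins and cystatins, mostly lysosomal proteases with 3 of their inhibitors, 1 rose with EC, 1 rose and 1 fell with IPFc and 9 rose and 1 fell with TGF-β in epithelial libraries, to be read against the same shares of all genes (21.0% and 20.1% with TGF-β), with the largest increases for Ctsw (9.03, adjusted p = 2.8e-10) and Ctse (6.6, adjusted p = 1e-14). In fibroblasts 2 rose with EC, 0 were called with IPFc (4 at an unadjusted p under 0.05, 1 called by DESeq2) and 2 rose and 3 fell with TGF-β (6.39% and 12.8% of all genes).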

How the data were processed

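RNA of the Epcam+ and Epcam- cells of each culture was sequenced in bulk (NEBNext Ultra II Directional, Illumina NovaSeq), 30 libraries in all. The authors trimmed reads with Trimmomatic 0.30 and deposited raw read counts per gene, without normalization. The labels name GRCm39 and the study's methods GRCm38, and the aligner and counter are not given in the sources used here. Library totals were 5113828 to 20317181 counts, and 3 reads, the floor that a count of 0 allows, were 0.148 to 0.587 CPM. Counting intervals cover counting error only.

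Groups and mouse numbers came from the labels. Counts were tested with edgeR 4.0.16 (R 4.3.3, quasi-likelihood test, TMM normalization, genes averaging 1 read or more per library), with the 4 treatments of a fraction in 1 fit and the mouse as a block, as in the study's paired design. P-values were adjusted over all genes tested by the Benjamini-Hochberg method and called below 0.05, two-sided. The comparison of fractions and the interaction of fraction and treatment were fitted over the libraries of both fractions. CPM are counts scaled to the TMM-normalized library size. The shares of the other fraction's RNA and the percentages of a level in the partner library used counts scaled to library totals instead. Those percentages can therefore differ from ratios of the CPM given. Deviations from group means correlated by 0.3 in epithelial and 0.32 in fibroblast libraries for the same mouse, and by -0.16 for different mice in both. Replicates differed by 5.48 to 76.9 times the chi-square expected from counting alone, so none was treated as a repeat of another. The pairs with the fibroblast EC library of mouse 1, the library with the fewest reads, were at 72.8 to 76.9. The other pairs of fibroblast EC libraries were at 10.4 to 28.7. The series holds no library for epithelial TGF-β of mouse 1 or fibroblast vehicle of mouse 2. The paper states that 1 fibroblast control sample was left out because its RNA was of low quality.

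The share of the other fraction's RNA was the median, over reference genes of that fraction at 50 CPM or more in the partner library, of the ratio of the levels in both libraries. For the alternative with subtraction, that share of the partner library was removed from the counts. Where a culture has no partner library, the mean of the partner group was used. Further alternatives were DESeq2 1.42.0 and its size factors, other filters, no block, separate fits, robust dispersions, the title suffix R (meaning not given) as a covariate, and leaving out each mouse. The edgeR tests of EC against vehicle in each fraction, of the fractions and of the interaction for EC were tried on simulated data with known changes. Genes with low counts were left out of the simulated data, which held no mouse effect and no RNA of the other fraction.

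Members and lists were chosen with earlier results of these data known. Named were the markers Mmp10, Adamts7 and Timp1, all TIMPs, every member called against vehicle, the 5 highest per length in each fraction and the 4 leading interactions, with values of every sample for up to 4 members per direction whose log2 fold change exceeded 1 in size with 1 sign in every mouse. Mmp3 in fibroblasts with EC was named after its values were seen. Promoter sequences and gene positions came from RefSeq for GRCm38.p6, where all 85 members were found by symbol and 54 had a promoter, and merged exon lengths from the GRCm39 annotation. The values of 1 gene of a further list are not reported here.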

Additional observations from a re-analysis of the deposited data

Results flagged for a closer look

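In 95 pairs of a member and a group of 4 libraries, 5 had a library further from the others than Dixon's limit, where chance flags about 1 in 20. Mmp2 and Timp2 were low in the epithelial EC library of mouse 3, at 18.3 CPM beside 38.5 to 40.1 and at 398 CPM beside 476 to 482, and that library had the lowest share of fibroblast RNA of its group, 5.34%. Mmp19 was high in the epithelial vehicle library of mouse 4, at 17.5 CPM beside 9.41 to 9.87. In the fibroblast TGF-β library of mouse 4, Adamts6 was low at 24.6 CPM beside 33.5 to 33.8 and Mmp2 was high at 1020 CPM beside 918 to 936.

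The response to a treatment differed between the fractions by edgeR's interaction test for 6 members with EC, 1 with IPFc and 35 with TGF-β, all more positive in epithelial libraries. With EC the leading log2 differences between the responses were 1.23 for Mmp19, 1.92 for Adamts4, 3.04 for Mmp10 and 1.21 for Adamts2. With IPFc it was 0.66 for Adam9. With TGF-β they were 2.66 for Mmp19, 2.35 for Adamts5, 1.82 for Mmp11 and 2.39 for Adam8. The share of the other fraction's RNA moved with treatment in both fractions, and its part in these differences was not tested beyond the subtraction.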

How the results depend on the processing

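With the other fraction's share subtracted, the count of members called went from 10 to 3 (epithelial EC), 10 to 1 (epithelial IPFc), 29 to 16 (epithelial TGF-β), 13 to 2 (fibroblast EC), 3 to 0 (fibroblast IPFc) and 31 to 13 (fibroblast TGF-β), from 6 to 2 and 30 to 19 (EC against IPFc and IPFc against TGF-β, epithelial), from 16 to 0 and 30 to 15 (the same, fibroblast), and from 6 to 3, 1 to 0 and 35 to 20 (the difference between the fractions' responses to EC, IPFc and TGF-β), where the 3 for EC were all lower and 0 of the 6 higher ones remained. Log2 values that changed sign under it were, in epithelial libraries, Adamts7 with EC (-3.59), Adamts7 (-3.37), Timp1 (-0.79) and Mmp19 (-0.06) with IPFc, Mmp14 (-0.18), Adamts4 (-0.18), Timp2 (-0.53) and Adamts14 (-3.48) with TGF-β, and Mmp14 (0.31), Adamts4 (3.99), Timp2 (0.05) and Adamts14 (6.21) for IPFc against TGF-β. In fibroblasts Mmp23 with TGF-β was at 0.18. For the difference between the fractions' responses they were Adamts7 with EC (-5.79) and, with TGF-β, Mmp14 (-0.23), Timp1 (-1.04), Adamts4 (-1.53), Adam28 (-3.2), Mmp9 (-2.37), Adam23 (-2.31), Mmp2 (-0.56) and Adamts14 (-3.88). Counts below 0 after subtraction were set to 0, and these values can rest on that floor. Without the replicate block, that is without pairing by mouse, the count was 5 for epithelial IPFc, 3 for epithelial EC against IPFc, 7 for fibroblast EC, 1 for fibroblast IPFc, 4 for fibroblast EC against IPFc and 0 for the difference between responses to EC and to IPFc. Without a filter it was 16 for epithelial EC and for epithelial EC against IPFc, 7 for fibroblast IPFc, and 14 and 7 for the differences in response to EC and IPFc. Separate fits gave 6 for fibroblast IPFc and 5 for fibroblast EC against IPFc, the title suffix as a covariate gave 1 for fibroblast IPFc and 0 for the difference in response to IPFc, and DESeq2 gave 10 and 2 for the differences in response to EC and IPFc. Leaving out each mouse gave 7 to 11 (epithelial EC), 7 to 12 (epithelial IPFc), 26 to 28 (epithelial TGF-β), 5 to 13 (fibroblast EC, 14 without the EC library of mouse 1 alone, an alternative chosen after seeing the data), 0 to 4 (fibroblast IPFc), 22 to 31 (fibroblast TGF-β), 4 to 15 (fibroblast EC against IPFc), 26 to 32 (fibroblast IPFc against TGF-β), 26 to 30 (epithelial IPFc against TGF-β), 4 to 6 (epithelial EC against IPFc), and 0 to 5 (8 without the EC library of mouse 1 alone), 0 and 32 to 35 for the differences in response to EC, IPFc and TGF-β. The comparison of fractions with vehicle gave 36 to 43 calls under the alternatives, against 42. Apart from the subtraction, no call of a member changed sign under these alternatives, and the causes were not tested.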
